A study of Mus musculus with 20 samples.

Results

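The nuclear genes of the mitochondrial respiratory chain were examined in sorted Trpv1 neurons of mouse dorsal root ganglia (DRG). Members were the protein-coding genes outside the mitochondrial genome whose symbols start with Ndufa, Ndufb, Ndufc, Ndufs, Ndufv, Uqcr, Cox4 to Cox8 or Atp5, together with Sdha, Sdhb, Sdhc, Sdhd and Cyc1, without predicted genes, pseudogenes and Ndufaf assembly factors. The rule found 88 of the 37620 genes listed. Of these, 37 were grouped with complex I, 4 with complex II, 9 with complex III, 21 with complex IV and 17 with complex V, the ATP synthase. The groups keep Cox4nb, Atp5s and Atp5sl, which match by symbol but are not subunits. Ndufb8 is counted under 2 gene identifiers, which share 134 exon bases. A value was present in all 20 libraries for 81 members, and 82 passed the filter on low values and were tested. RNA came from lumbar (L4-5) and sacral (L6-S1) DRG of 5 male and 5 female donors, 1 library per level and donor, all from adult mice aged 6 to 8 weeks that were homozygous for Trpv1tm2Bbm. This allele places a placental alkaline phosphatase and nuclear lacZ reporter under the control of Trpv1, and the cells taken were the brightest after treatment with a fluorescent galactosidase substrate, so every group carried the reporter and passed the same gate. Each donor label carries 2 animal numbers while the methods count mice one by one, so whether 1 or 2 animals stand behind a donor is not known. The donors are called M1 to M5 and F1 to F5 here.

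The respiratory chain sits in the inner mitochondrial membrane, where complexes I and II pass electrons from NADH and succinate to ubiquinone, complex III passes them to cytochrome c, and complex IV to oxygen. Complexes I, III and IV pump protons, and ATP synthase uses the returning protons to make ATP. Except for complex II, the complexes combine a few membrane subunits encoded by the mitochondrial genome with many subunits encoded in the nucleus, and neurons depend on this pathway for most of their ATP.

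Levels are given as log2 RPKM, where RPKM counts reads on a gene per kilobase of its exons, scaled to the size of the library. A log2 fold change is the lumbar level less the sacral level, and a negative one therefore means upregulation in sacral DRG. Reads on genes, worked back from the deposited values, numbered 44017974 to 66628884 per library. The members held 0.275 to 0.459% of these reads in lumbar and 0.436 to 0.545% in sacral libraries, more in the sacral library of 10 of 10 donors. Reads of the mitochondrial genome took 37.1 to 60.2% of lumbar and 21.4 to 41.5% of sacral libraries. Genes annotated as ribosomal RNA, nuclear and mitochondrial together, took 32.8 to 53.4% of lumbar and 18.9 to 36.7% of sacral libraries. This share was higher in lumbar in 10 of 10 donors, so the mitochondrial reads cannot be taken as mRNA of respiratory subunits. Of the reads outside the mitochondrial genome, the members held 0.599 to 0.867% in lumbar and 0.623 to 0.830% in sacral libraries, more in lumbar in 6 donors and in sacral in 4, so the direction for the members as a whole depended on which reads form the total. The median log2 fold change over all genes was -0.11 on the deposited values, -0.45 with scaling to total reads and 0.02 with scaling to the RPKM outside the mitochondrial genome.

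The sorted cells carried neuronal markers and also glial markers. The summed RPKM of 10 glial markers ran from 2011 to 4009 in lumbar and from 1223 to 2087 in sacral libraries, higher in lumbar in 10 of 10 donors, and that of 6 pan-neuronal markers from 978 to 1623 and from 1465 to 1882, higher in sacral in 10 of 10. Endothelial and red cell markers were also higher in lumbar DRG in 10 of 10 donors and macrophage markers in 9, at summed RPKM of at most 66.5. None of 10 striated muscle markers passed the filter. The summed RPKM of 8 markers of Trpv1 neurons ran from 1608 to 2408 in lumbar and from 1942 to 2682 in sacral libraries. It was higher in lumbar in 2 of 10 donors. In the limma fit described below, 6 of the 8 (75%) were higher in sacral DRG, against 30.3% of all genes, and 0 in lumbar DRG. Trpv1 was at -0.96, while Calca at 0.16 and Tac1 at -0.10 did not pass. With the mean of the glial markers as a covariate 0 of the 8 were called. In bulk RNA, fewer cells of a type and less RNA per cell cannot be told apart. Library numbers in the labels run in 1 unbroken block for each group of sex and level, so anything that follows these numbers cannot be told apart from the groups.

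Respiratory chain genes were among the well expressed genes of these neurons. Of the 82 members tested, 52 had a mean above 4 log2 RPKM over the 20 libraries. The highest was Ndufa4, which was described first with complex I and is now counted with complex IV, at 8.04 ± 0.33 (SD, n = 20), followed by Atp5b, the catalytic beta subunit of ATP synthase, at 7.57 ± 0.24, Cox6a1 at 7.49 ± 0.23, Cox4i1 at 7.44 ± 0.25 and Cox8a at 7.44 ± 0.24. Neighbours in this order after Ndufa4 lay within 1 SD of each other. Levels per length depend on the annotated exon length, which ran from 225 to 6883 bases among the members. Ndufab1, the mitochondrial acyl carrier protein, had the longest exons at 6883 bases for a coding length of 471 and a level of only 0.27 ± 0.26, so it cannot be ranked fairly against genes with compact exons.

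Transcription factors known to bind promoters of nuclear respiratory genes include NRF1, the GABP complex, YY1 and estrogen-related receptors. RefSeq promoter windows on GRCm38.p6, from 250 bases before to 50 after the start, were found for 70 members. Where a gene had several starts, its windows were counted together as 1, so the counts of windows below are counts of genes. The NRF1 motif, in the 10-letter form seen in capitals in the first 3 stretches below with any base allowed at its sixth letter, was searched on both strands and occurred in 17 of the 70 windows (24.3%), against 5.19% of all 27025 windows and 7.17% of those of coding genes. The ETS letters CCGGAAG, part of the sites that GABP can bind, occurred in 22.9%, against 9.93% of all windows and 12.9% of those of coding genes. The YY1 motif occurred in 7.14%, against 1.17% of all windows and 1.63% of those of coding genes. The letters TCAAGGTCA of estrogen-related receptors occurred in 2.86%, against 0.466% and 0.377%. These were searched on both strands too. The NRF1 motif stood in 4 of 12 windows of members higher in sacral DRG, 1 of 9 of members higher in lumbar DRG and 11 of 46 of members that did not pass. For the ETS letters these counts were 2 of 12, 4 of 9 and 10 of 46. For the YY1 motif they were 1, 1 and 3, and for the letters of estrogen-related receptors 1, 0 and 1. A match is a description of letters and does not show binding, and the motifs can overlap each other. Stretches of 80 bases are shown for 3 members with the NRF1 motif, 2 higher in sacral and 1 in lumbar DRG. A further stretch is from the sacral member with the letters of estrogen-related receptors, Atp5g3. The match is in capitals and each stretch is written along the strand of its gene. In Atp5g3 the capitals are the letters TCAAGGTCA as read on the opposite strand.
Sdha (chr13:74350294-74350373, minus strand): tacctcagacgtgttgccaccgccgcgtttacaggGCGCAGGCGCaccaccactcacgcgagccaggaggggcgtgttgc
Cox6a1 (chr5:115349031-115349110, minus strand): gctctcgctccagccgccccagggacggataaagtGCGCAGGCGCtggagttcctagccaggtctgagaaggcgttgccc
Ndufb4 (chr16:37654403-37654482, minus strand): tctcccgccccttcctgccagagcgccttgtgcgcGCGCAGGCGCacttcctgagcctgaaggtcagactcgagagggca
Atp5g3 (chr2:73911335-73911414, minus strand): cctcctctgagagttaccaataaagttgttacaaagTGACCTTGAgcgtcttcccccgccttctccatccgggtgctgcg

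The main question was whether the respiratory chain genes differed between lumbar and sacral Trpv1 neurons. Differential expression was tested with limma on all 16304 genes, with the donor as a block. At an adjusted p of 0.05, 24 of the 82 members were differentially expressed, which is 29.3%, and the share of all genes tested was 45.6%. Upregulation in sacral DRG was found for 15 of the 82 members, against 30.3% of all genes, and upregulation in lumbar DRG for 9 of 82, against 15.3%. The median log2 fold change of the members was -0.03. Whether these shares differ from those of all genes was not tested. The 15 sacral changes were small, from -0.27 to -0.59, and the 9 lumbar changes ran from 0.23 to 1.56 on the log2 scale. With quantile normalization the counts of 15 and 9 became 7 and 27, and with the mean of the glial markers as a covariate limma called 0 members, with Ndufs1 and Uqcrc1 turning to 0.11 and 0.19. All 15 kept their sign under 5 other scalings of the libraries, and 9 of them were higher in sacral DRG in 10 of 10 donors. Of the 9 lumbar changes, 7 kept their sign under those scalings in which they were tested. Cox6b1 and Ndufs4 turned to -0.10 and -0.03 with scaling to total reads.

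**Figure D1:**
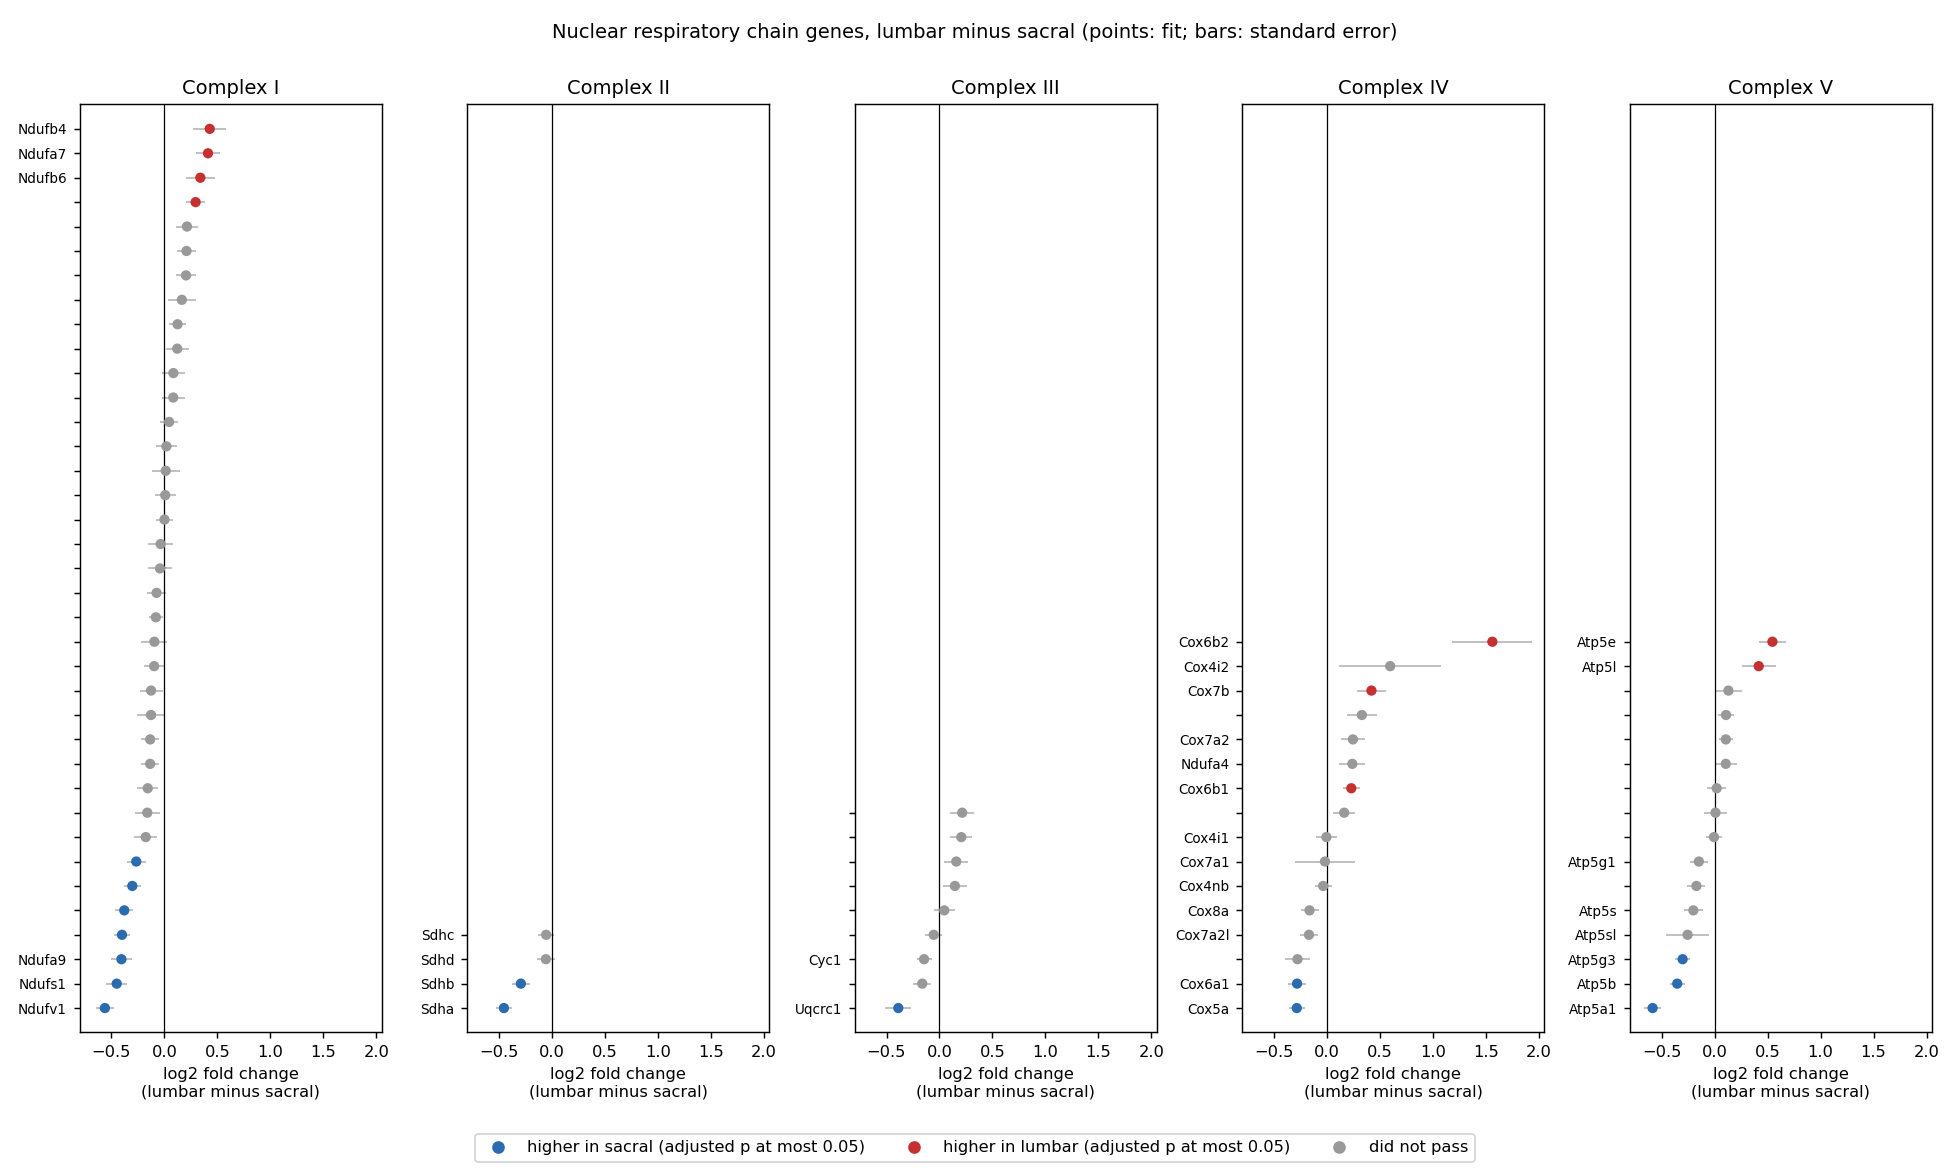
Log2 fold change between lumbar and sacral DRG (horizontal axis, lumbar minus sacral) of the 82 members tested, 1 panel per complex; points are limma estimates, bars are standard errors and gene names are given for the members chosen by the naming rule. Members higher in sacral DRG (blue, 15) and in lumbar DRG (red, 9) both occur in complexes I, IV and V, and the widest bars belong to Cox6b2 and Cox4i2. With scaling to total reads Cox6b1 and Ndufs4, red here, had values below 0.

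In complex I, the NADH dehydrogenase, 7 of 37 members (18.9%) were higher in sacral and 4 (10.8%) in lumbar DRG, against 30.3% and 15.3% of all genes. Its core subunits hold the flavin and the iron-sulfur clusters that carry the electrons, and Ndufv1 and Ndufs1 among them rose in sacral DRG. Ndufv1 (ENSMUSG00000037916; mm9 chromosome 19, 4007497 to 4012806), the subunit that binds NADH and flavin, lay between 3.72 and 4.43 (median 4.09) in the lumbar libraries and between 4.44 and 5.0 (median 4.59) in the sacral libraries. The 2 ranges did not overlap, which held for 3 of the 81 members with a value in every library, against 1.71% of all such genes. All 3 were higher in sacral DRG, as were 1.34% of all such genes. The log2 fold change of Ndufv1 was -0.56, with a standard error of 0.08 and an adjusted p of 2.4e-05. Ndufs1, the largest core subunit, ranged from 3.31 to 4.10 (median 3.39) in lumbar and from 3.74 to 4.33 (median 4.02) in sacral DRG. The ranges overlapped because of 3 high lumbar libraries, those of M1, F2 and F5, yet the sacral library was higher in 10 of 10 donors. Ndufs1 changed by -0.45 (standard error 0.10, adjusted p = 0.0012), and 248 of its exon bases overlap a noncoding RNA on the opposite strand.

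The accessory subunits of complex I surround the core and serve in its assembly and stability. Of these, 4 of 30 (13.3%) were higher in each direction, against 30.3% in sacral and 15.3% in lumbar DRG of all genes. Their median was -0.02. Ndufa9, at the junction of the arms of the complex, rose in sacral DRG by -0.41 (standard error 0.10, adjusted p = 0.0020), from a lumbar median of 5.38 (4.79 to 5.89) to a sacral median of 5.76 (5.42 to 5.99). The other 3 accessory members higher in sacral DRG were Ndufa10 at -0.40, Ndufv3 at -0.30 and Ndufa12 at -0.27. The members higher in lumbar DRG were all accessory. Ndufb4, a subunit of the membrane arm, lay between 0.49 and 1.95 (median 1.70) in lumbar and between 0.55 and 1.72 (median 1.13) in sacral DRG, so the ranges overlapped almost wholly. It changed by 0.43 (standard error 0.16, adjusted p = 0.029) on 97 to 188 reads per library, the thinnest data of the 4, and 27.7% of the 50-base windows in its exons occur elsewhere in the genome. Ndufa7 lay between 3.16 and 4.31 (median 3.96) in lumbar and between 2.98 and 3.90 (median 3.51) in sacral DRG, and its lumbar library was higher in 10 of 10 donors. The fold change of Ndufa7 was 0.41 (standard error 0.12, adjusted p = 0.0072). Ndufb6 was at 0.34 (standard error 0.13, adjusted p = 0.043) and Ndufs4 at 0.30, each with 8 of 10 donors higher in lumbar DRG, and Ndufs4 is the member that turned with scaling to total reads.

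Complex II, succinate dehydrogenase, is the only complex of the chain encoded wholly in the nucleus, and it also serves in the citric acid cycle. Its catalytic pair rose in sacral DRG and its membrane anchors did not pass. Sdha (ENSMUSG00000021577; mm9 chromosome 13, 74459702 to 74487728), the flavoprotein whose promoter stretch with an NRF1 motif is given above, lay between 5.2 and 5.80 (median 5.45) in lumbar and between 5.84 and 6.03 (median 5.92) in sacral DRG. The groups did not overlap, and the sacral libraries were close together (SD 0.06, n = 10) where the lumbar libraries were spread (SD 0.22, n = 10). Sdha changed by -0.45 (standard error 0.07, adjusted p = 5.9e-05). Sdhb, the iron-sulfur subunit, had a lumbar median of 3.93 (3.43 to 4.24) and a sacral median of 4.22 (3.98 to 4.44), a fold change of -0.29 (standard error 0.08, adjusted p = 0.0070). The anchors Sdhc and Sdhd, which hold the ubiquinone site, were at -0.05 (standard error 0.08) and -0.06 (standard error 0.09), and both turned positive under several scalings.

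In complex III, the cytochrome c reductase, 1 of 9 members (11.1%) passed, against 45.6% of all genes. Uqcrc1, one of the large matrix-facing core proteins, was at -0.39 (standard error 0.12, adjusted p = 0.014), with 3.53 to 4.84 (median 4.27) in lumbar and 3.99 to 4.81 (median 4.61) in sacral DRG. The groups overlapped, and 9 of 10 donors had more in sacral DRG. Its partner Uqcrc2, named after its values were seen, was at -0.05 (standard error 0.08), with medians of 4.57 and 4.63. Cyc1, the cytochrome c1 subunit that hands electrons to cytochrome c, was at -0.15 (standard error 0.07, adjusted p = 0.096), with 9 of 10 donors higher in sacral DRG. The 5 small accessory subunits ranged from 0.05 to 0.21 and none passed.

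Complex IV, the cytochrome c oxidase, gave 2 members (12.5%) higher in sacral and 3 (18.8%) in lumbar DRG of 16 tested, with a median of 0.08. The shares of all genes were 30.3% and 15.3%. Cox5a, a subunit on the matrix side, had 5.41 to 6.19 (median 5.58) in lumbar and 5.58 to 6.18 (median 6.00) in sacral DRG, a fold change of -0.29 (standard error 0.08, adjusted p = 0.0051). Its exons share 267 bases with a noncoding RNA on the opposite strand. Cox6a1, the form of subunit VIa found outside heart and skeletal muscle, had 6.93 to 7.74 (median 7.35) in lumbar and 7.44 to 7.86 (median 7.63) in sacral DRG, and was higher in sacral DRG in 10 of 10 donors. The fold change of Cox6a1 was -0.28 (standard error 0.08, adjusted p = 0.0081). Cox7b ranged from 5.42 to 6.53 (median 6.28) in lumbar and from 5.24 to 6.55 (median 5.81) in sacral DRG, nearly the same range, with 8 of 10 donors higher in lumbar DRG. It was at 0.42 (standard error 0.13, adjusted p = 0.015). Cox6b1 was at 0.23 (standard error 0.08, adjusted p = 0.023), with 9 of 10 donors higher in lumbar DRG, and turned to -0.10 with scaling to total reads.

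Several complex IV subunits have isoforms that are usually linked to particular tissues. In the pairs Cox4i1 and Cox4i2, Cox6a1 and Cox6a2, Cox6b1 and Cox6b2, Cox7a2 and Cox7a1, Cox7b and Cox7b2, and Cox8a and Cox8b, every value of the general form lay above every value of the other. Cox4i1 was at 7.44 ± 0.25 (SD, n = 20) and Cox4i2, a form linked to lung and low oxygen, at -1.44 ± 1.40 on 2 to 51 reads. Cox7a2 was at 5.31 ± 0.30 and the muscle form Cox7a1 at 1.46 ± 0.97 on 16 to 126 reads. Cox6a2 and Cox8b, the muscle forms of their subunits, had a value in 3 and 2 libraries, with at most 15 and 3 reads. Cox7b2 had a value in 15 libraries with at most 19 reads, and Cox8c is listed without a value in any library. Cox6b2, known as a testis form, was the member with the largest fold change. Its values ran from -0.96 to 2.93 (median 1.22) in lumbar and from -2.16 to 0.77 (median -0.17) in sacral DRG, with 158 reads at most. The sacral library of M3 had no value and did not enter the fit. It was counted as 0 reads, beside 45 in the lumbar library of M3. The fold change of Cox6b2 was 1.56 (standard error 0.38, adjusted p = 0.0024), a 2.95-fold higher level in lumbar DRG, and the log2 value ran from 0.98 with a pseudocount of 1 to 2.13 with voom and TMM. The difference was found in 8 of the 9 donors with both values, while M1 went the other way. Cox4i2, Cox7a1, Cox7a2, Cox4i1 and Cox8a did not pass between the levels.

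**Figure D2:**
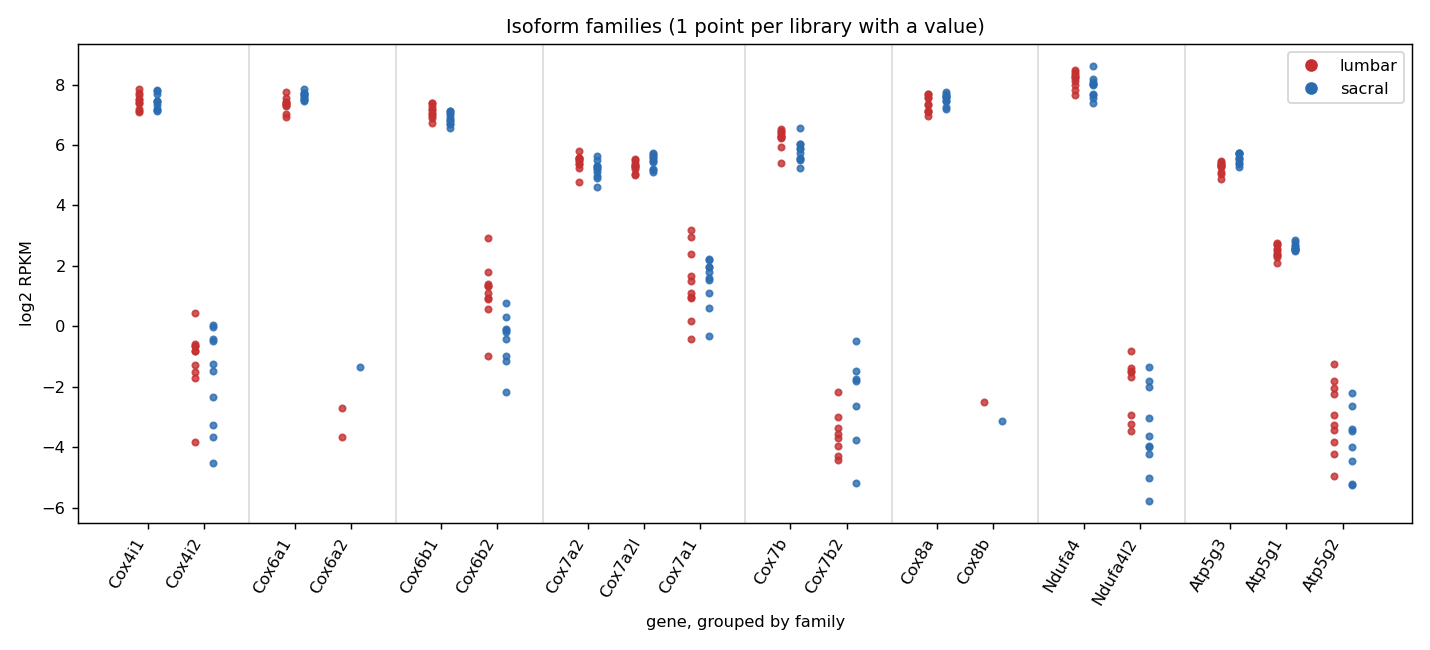
Level (log2 RPKM, vertical axis) of isoform families in lumbar (red) and sacral (blue) libraries, with 1 point per library that has a value. In complex IV the general forms lie above 4 and the tissue-linked forms below 4, and Cox6b2 is the tissue-linked form that passed the test, higher in lumbar DRG.

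Complex V gave 3 members (18.8%) higher in sacral and 2 (12.5%) in lumbar DRG of 16 tested, against 30.3% and 15.3% of all genes. Among them were 3 of the 5 subunits of its catalytic head, F1, in both directions. Atp5a1, the alpha subunit, had 6.06 to 6.87 (median 6.51) in lumbar and 6.94 to 7.24 (median 7.11) in sacral DRG, without overlap. Its change of -0.59 (standard error 0.08, adjusted p = 1.3e-05) is a 1.5-fold difference and was the largest sacral change of any member, on 9490 reads or more per library. Atp5b, the beta subunit, ranged from 7.07 to 7.75 (median 7.43) in lumbar and from 7.5 to 7.84 (median 7.79) in sacral DRG. The fold change of Atp5b was -0.35 (standard error 0.07, adjusted p = 0.00040), with 10 of 10 donors higher in sacral DRG. Atp5e, the epsilon subunit of the central stalk, went the other way, with 3.65 to 4.63 (median 4.07) in lumbar and 3.10 to 4.28 (median 3.51) in sacral DRG. It was higher in lumbar DRG in 10 of 10 donors, at 0.55 (standard error 0.13, adjusted p = 0.0018). Atp5l, a membrane subunit, was at 0.42 (standard error 0.16, adjusted p = 0.039), but 86.5% of its windows occur elsewhere in the genome and only 62 to 186 reads per library were counted on it, so its value is uncertain. The remaining F1 subunits Atp5c1 and Atp5d and all 4 stalk subunits outside F1 did not pass.

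The rotating ring of subunit c is encoded by 3 genes that give the same mature protein. Atp5g3 was the highest at 5.41 ± 0.23 (SD, n = 20), then Atp5g1 at 2.56 ± 0.19, and Atp5g2 at -3.36 ± 1.19 in the 18 libraries with a value. Every window of Atp5g2 and 26.1% of those of Atp5g1 have another copy in the genome, and only uniquely mapped reads were kept, so the levels of both are uncertain. Atp5g3 rose in sacral DRG at -0.30 (standard error 0.07, adjusted p = 0.0024), and Atp5g1 was at -0.15 (standard error 0.08, adjusted p = 0.15). The naming rule also takes in relatives and genes that are not subunits. Cox4nb, known as Emc8 of the endoplasmic reticulum, was at -0.04, Atp5s at -0.20, Atp5sl at -0.26 and Cox7a2l, which takes part in supercomplexes, at -0.17, none of which passed, and Ndufa4l2 was not tested, with at most 24 reads.

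**Figure D3:**
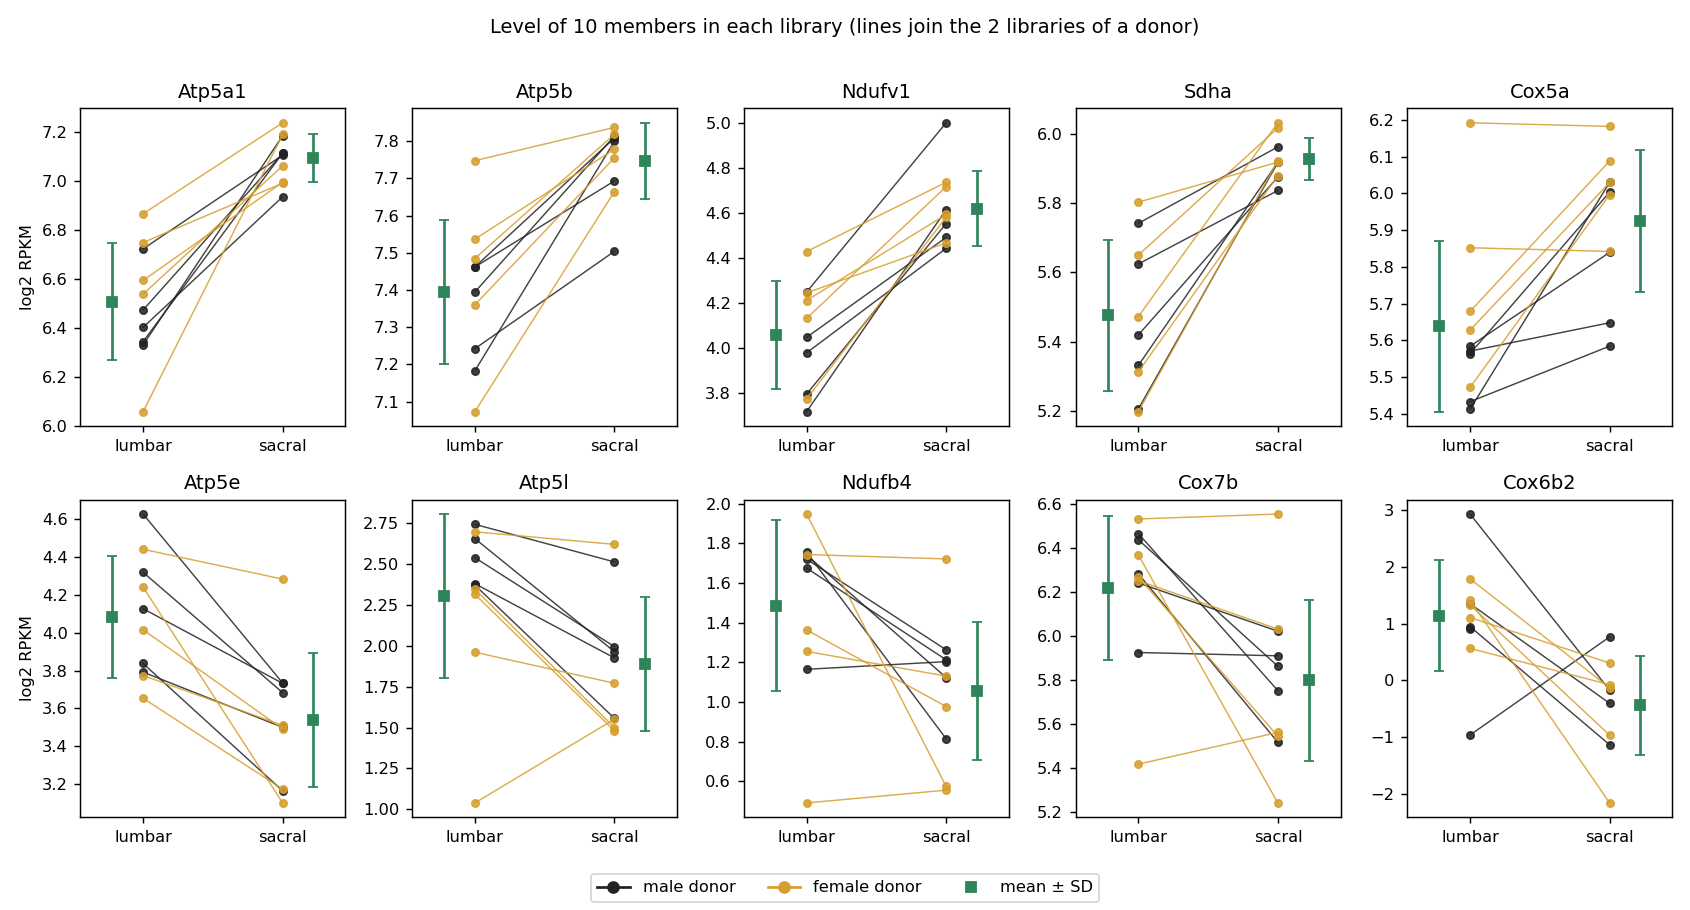
Level (log2 RPKM, vertical axis) of 10 members in the lumbar and sacral library of each donor, joined by a line (black, male; yellow, female); squares are means and bars SD over the libraries of a level. All lines rise toward sacral DRG for Atp5a1, Atp5b, Ndufv1 and Sdha, all fall for Atp5e, and those of Cox7b, Ndufb4, Atp5l and Cox6b2 fall in most donors.

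The difference between members of 1 complex inside a library does not depend on a scaling factor for the whole library. For pairs chosen after their values were seen, Atp5a1 exceeded Atp5e by 2.42 ± 0.43 (SD, n = 10) in lumbar and by 3.56 ± 0.32 in sacral libraries on the log2 RPKM scale. The difference was smaller in the lumbar library of 10 of 10 donors. Likewise Ndufv1 exceeded Ndufb4 by 2.57 ± 0.53 in lumbar and 3.56 ± 0.33 in sacral libraries, and Sdha stood at -0.32 ± 0.29 and 0.08 ± 0.18 against Sdhd. Uqcrc1 against Uqcrh moved from -1.30 ± 0.38 to -0.70 ± 0.41, and Cox5a against Cox7b from -0.58 ± 0.40 to 0.12 ± 0.38. Each of these was smaller in lumbar DRG in 10 of 10 donors. Other pairs examined were less uniform. Atp5b against Atp5l and Sdha against Sdhc were smaller in lumbar DRG in 9 donors, and Atp5g3 against Atp5g1 in 7. Cox7a1 against Cox7a2 was smaller in 7, Cox4i2 against Cox4i1 in 4 and Cox6b2 against Cox6b1 in 1. Because the pairs shown with means were picked with their values known, their shared direction is a description.

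The members higher in sacral DRG had longer coding sequences than those higher in lumbar DRG. The median longest coding length was 1392 bases (339 to 2184) for the 15 sacral members, 312 (159 to 528) for the 9 lumbar members and 412.5 for the 58 that did not pass. Of the 11 members with 1000 coding bases or more, 10 were higher in sacral DRG, with Uqcrc2 the exception, and none in lumbar DRG. Of the 19 members under 300 bases none was higher in sacral and 4 in lumbar DRG. Of the 29 members from 300 to 500 bases 4 were higher in each direction, and of the 23 from 500 to 1000 bases 1 in each. Among all protein-coding genes tested, 39.1% of those of 1000 bases or more were higher in sacral and 14.3% in lumbar DRG, and under 300 bases 17.3% and 23.1%. From 300 to 500 bases these shares were 19.5% and 17.3%, and from 500 to 1000 bases 27.8% and 14.7%. Across the 82 members, Pearson's r of the log2 fold change with log2 coding length was -0.57 and Spearman's rho -0.58, and across 13114 protein-coding genes -0.11 and -0.15. Genes share libraries and are not independent replicates, so no p is given. With the trend on exon length over all genes removed from each library, r over the members was -0.46. With the glial marker mean as a covariate it was -0.14. The part of glial RNA in this relation was not tested further.

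**Figure D4:**
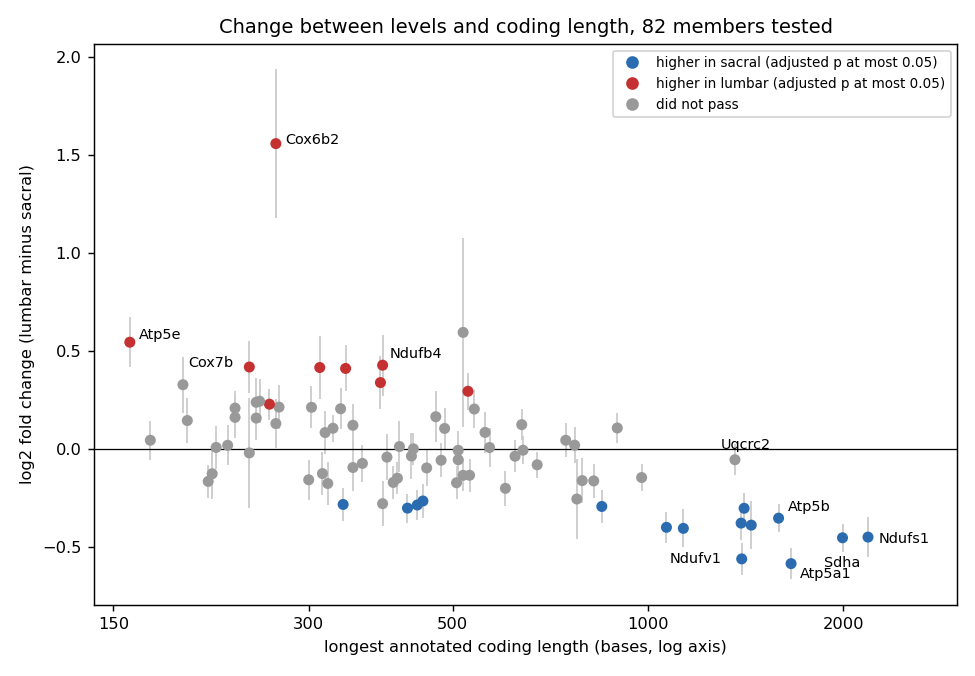
Log2 fold change (vertical axis, lumbar minus sacral; bars are standard errors) of the 82 members tested against their longest annotated coding length in bases (log axis). The points fall toward the right, and all members of 1000 bases or more except Uqcrc2 are blue, which marks those higher in sacral DRG.

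Donors differed in the direction of the members as a whole. The median difference over the 81 members with all values ran from -0.38 in F3 to 0.22 in F1, with negative medians in 6 of 10 donors. Over all genes tested with all values, the median was negative in every donor, from -0.30 in M5 to -0.0087 in M2. Complex II had negative medians in 8 of 10 donors, all but F1 and F5. The spread between donors (SD 0.19) was wider than the median change of the members, and 11 of the 81 members went the same way in 10 of 10 donors, while 21.2% of all such genes did.

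The call counts moved with the scaling and with the glial covariate. With TMM factors 13 members were higher in sacral and 18 in lumbar DRG, against 25% and 19.2% of all genes. With quantile normalization the counts were 7 and 27, against 25.4% and 19.3%, and with scaling to RPKM outside the mitochondrial genome 11 and 23, against 18.5% and 20.1%. With the length trend removed they were 17 and 18, against 22.9% and 20.6%. With voom on recovered reads and TMM they were 8 and 22, against 22.1% and 22.3%, and with voom and total reads 54 and 1, against 62.2% and 8.33%. All the sacral members under TMM factors, quantile normalization, scaling outside the mitochondrial genome and voom with TMM were among the 15 named from the deposited values. With the mean of the glial markers as a covariate, 0 members were called, against 81 of 16304 genes (0.497%) higher in sacral and 2 (0.0123%) in lumbar DRG. In this limma fit 13 of the 15 sacral and 8 of the 9 lumbar members kept their sign, and standard errors grew, for Atp5a1 from 0.08 to 0.15. Atp5a1 was at -0.35 and Sdha at -0.26, while Ndufs1 was at 0.11, Uqcrc1 at 0.19 and Cox7b at -0.09. The glial mean was higher in the lumbar library of 10 of 10 donors, by 1.02 ± 0.27 (SD) on the log2 scale, so glial RNA and spinal level moved together in every donor.

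**Figure D5:**
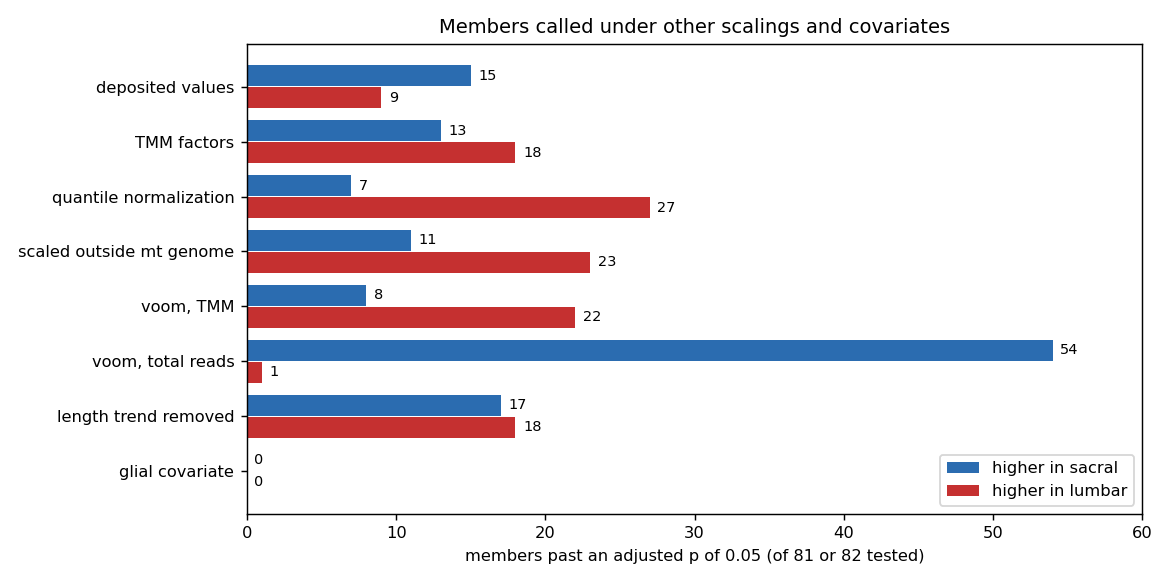
Number of members past an adjusted p of 0.05 (horizontal axis) that were higher in sacral (blue) or lumbar DRG (red) with the deposited values and with 7 other scalings, corrections or covariates, of 81 or 82 tested. The split runs from 54 and 1 with total reads to 7 and 27 with quantile normalization, and no member is called with the glial covariate.

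The study also asked whether sex mattered. No member passed the test of the interaction of sex and level with limma (0 of 82, lowest adjusted p = 0.96), and 1 had an unadjusted p under 0.05, where 4.10% of all genes did. That member was Cox4i2, whose lumbar minus sacral difference was 1.97 in males and -0.78 in females on at most 51 reads. Between females and males in lumbar DRG 0 of 82 members passed (lowest adjusted p = 0.26) and 5 had an unadjusted p under 0.05, against 11.4% of all genes, with 0.0427% of all genes called. The lowest of these was Cox7a1, at -1.57 for female minus male. In sacral DRG 0 of 82 passed (lowest adjusted p = 0.52), 1 had an unadjusted p under 0.05 against 8.09% of all genes, and 0.0368% of all genes were called. Between lumbar and sacral DRG, Atp5a1 was at -0.64 in males and -0.53 in females, Ndufv1 at -0.66 and -0.46, and Sdha at -0.44 and -0.47.

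Other genes of the pathway were counted in the same fit, in which 30.3% of all genes were higher in sacral and 15.3% in lumbar DRG. Differences between the lists were not tested. All 13 subunits encoded by the mitochondrial genome were higher in lumbar DRG, with a median of 1.08, from 0.44 for mt-Nd3 to 1.20 for mt-Co1, and none turned sign under the 5 other scalings. With the glial covariate none passed and 2 were negative. Of 13 citric acid cycle genes, 10 (76.9%) were higher in sacral DRG with a median of -0.27. The sacral count was 6 with quantile normalization, with scaling outside the mitochondrial genome and with voom and TMM, 12 with total reads and 0 with the glial covariate. Members of this list were citrate synthase (Cs) at -0.42 and Ogdh, of the oxoglutarate dehydrogenase complex, at -0.54. Suclg2, the GTP-forming partner of succinyl-CoA ligase, was higher in lumbar DRG at 1.06, and Sucla2, the ATP-forming partner, in sacral DRG at -0.52, each in 10 of 10 donors. Among 8 carriers, channels and the ATPase inhibitor, 4 were higher in sacral DRG, with Vdac1 of the outer membrane at -0.43, and none in lumbar DRG. The sacral count was 2 with quantile normalization, with scaling outside the mitochondrial genome and with voom and TMM, 8 with total reads and 0 with the glial covariate, and 1 was higher in lumbar DRG with quantile normalization.

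Of 47 assembly factors of the 5 complexes, 10 (21.3%) were higher in sacral and 4 (8.51%) in lumbar DRG, against 30.3% and 15.3% of all genes. The counts were 4 and 6 with scaling outside the mitochondrial genome, 3 and 6 with voom and TMM, 33 and 0 with total reads and 0 and 0 with the glial covariate. The median was -0.08, which turned to 0.05 with scaling outside the mitochondrial genome and 0.07 with voom and TMM. Lrpprc, which stabilises mitochondrial mRNA, was at -0.86 with 10 of 10 donors higher in sacral DRG, and Sco2, a copper chaperone of complex IV, at -0.63. Mitochondrial ribosomal proteins gave 10 of 75 (13.3%) higher in sacral and 3 (4%) in lumbar DRG, and cytoplasmic ribosomal proteins, with a median coding length of 471 bases, 5 (6.17%) and 21 (25.9%) of 81. Among 12 regulators, Ppargc1a, the coactivator of mitochondrial biogenesis, was higher in lumbar DRG at 0.41 (standard error 0.11, adjusted p = 0.0040) and its relative Pprc1 in sacral DRG at -0.40 (standard error 0.10, adjusted p = 0.0033). Gabpa was higher in lumbar DRG at 0.21, but shares 397 exon bases with Atp5j on the opposite strand. Nrf1, which encodes the factor whose motif was searched above, was at 0.06 (standard error 0.16) at a low level of -0.26 in lumbar and -0.32 in sacral DRG.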

How the data were processed

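Trpv1 neurons of 10 donors were profiled in 20 libraries, which were grouped by level and sex from their titles, and libraries of both levels with the same animal numbers were paired. Per the methods and submitters' notes, the authors amplified total RNA, aligned reads to mm9 with Subread, counted uniquely mapped reads on Ensembl genes with featureCounts (use of strand not stated) and used edgeR 3.12.1 and limma 3.26.9. The authors deposited the abundances on a log2 scale as RPKM. Each library has the same median of 0.93, a step that the sources used here do not describe. Whole reads were worked back from them (28190 of 28233 genes whole within 0.01 of a read). They set the depth, whose limits cover counting error only.

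The test was limma 3.58.1 (R 4.3.3, statmod 1.5.0), applied to those log2 values with 4 group means, the donor as a random block (correlation 0.17), a variance trend and Benjamini-Hochberg adjustment over all genes tested. Genes were kept with a mean above -1 in at least 1 group with 3 or more values. Deviations from the group means correlated at 0.14 within donors (10 pairs, lowest 0.02) and -0.03 between donors of a sex. The fit was tested on simulated data. Replicates are donors. The p-values rest on the spread of libraries about their group means, moderated across genes, with 1 donor correlation shared by all genes. For lumbar minus sacral, both libraries of a donor enter, so spread that they share partly cancels.

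Symbols, positions and coding lengths came from GENCODE vM1 on NCBIM37 (37205 of 37620 genes matched), and 50-base exon windows were searched in that genome. Promoters came from RefSeq. Python 3.11.15, pandas 2.3.3 and matplotlib 3.10.9 were used for summaries. Members and lists were chosen with earlier results of these data known. Members are named when among the 3 largest changes in each direction in their complex, in an isoform family, among Sdha to Sdhd and Cyc1, among the 5 highest levels, or when not tested or not subunits. A withheld item is not reported here. Other names are stated as chosen later, and minor ones complete a count. Alternatives covered the donor model, filters, pseudocounts of 1 and 0.1, scaling, variance trend, glial covariate, length trend, each donor left out, each sex alone and an adjusted p of 0.01. Voom with total reads was added after seeing the data.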

Additional observations from a re-analysis of the deposited data

Results flagged for a closer look

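Of 141 groups of 4 or 5 libraries examined for the named members, 10 held a library that stood apart from the others by Dixon's criterion, and chance alone gives about 1 in 20. In lumbar males, Ndufs1 was at 4.10 in M1 against 3.38 to 3.56 in the others, and Ndufb4 was at 1.16 in M1 against 1.67 to 1.75. In lumbar females, Cox7b was at 5.42 in F2 against 6.25 to 6.53, and Cox4i2 at -3.84 in F4 against -1.51 to -0.63. In sacral males, M3 was low for Ndufa4 at 7.57 against 8.01 to 8.17 and for Ndufa7 at 3.19 against 3.53 to 3.66. In sacral females, F4 was high for Atp5l at 2.62 against 1.48 to 1.77 and for Sdhd at 6.22 against 5.75 to 5.81. Also in sacral females, Sdhc was at 4.38 in F3 against 3.87 to 3.98 and Atp5g1 at 2.87 in F5 against 2.56 to 2.58. All values are log2 RPKM.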

How the results depend on the processing

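The 15 members higher in sacral DRG became 7 with quantile normalization, 8 with voom and TMM, 54 with voom and total reads, 0 with the glial covariate and 6 in females alone, and ran from 14 to 17 with 1 donor left out. The 9 higher in lumbar DRG became 27 with quantile normalization, 18 with TMM factors, 23 with scaling outside the mitochondrial genome, 18 with the length trend removed, 22 with voom and TMM, 1 with voom and total reads, 0 with the glial covariate, 1 in females alone and 3 at an adjusted p of 0.01. With 1 donor left out they ran from 3 (without F1) to 13 (without F2), with 5 without M3 and 6 without F5. Without the donor block, so without pairing, the counts were 15 and 6, and with the donor as a fixed block 16 and 10. The members' median moved to -0.36 with total reads, where that of all genes was -0.45; voom with total reads was chosen after seeing the data. The sex tests and the interaction gave 0 calls in every alternative run. Low-value filters, pseudocounts and the variance trend kept the counts within 1.5 times.

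Signs that turned are given here for the members chosen by the naming rule, and the cause was not tested. Over all 82 members, 53 had the other sign in at least 1 of the 5 other scalings or with the length trend removed, where tested. Among them was Ndufs4 at -0.03 with voom and total reads. With quantile normalization Cox4i1 was at 0.19, Cox4nb at 0.13, Cox7a1 at 0.021, Cox7a2l at 0.036, Cox8a at 0.0064, Cyc1 at 0.066, Sdhc at 0.12 and Sdhd at 0.15. With TMM factors Cox4i1 was at 0.066, Cox4nb at 0.036, Cox7a1 at 0.053, Sdhc at 0.018 and Sdhd at 0.016. With scaling outside the mitochondrial genome Cox4i1 was at 0.12, Cox4nb at 0.091, Cox7a1 at 0.11, Sdhc at 0.074 and Sdhd at 0.071. With voom and TMM Cox4i1 was at 0.12, Cox4nb at 0.090, Cox7a1 at 0.016, Sdhc at 0.071 and Sdhd at 0.072. With voom and total reads Cox6b1 was at -0.10, Cox7a2 at -0.084 and Ndufa4 at -0.084. With the length trend removed Atp5g1 was at 0.0033, Cox4nb at 0.12, Sdhc at 0.068 and Sdhd at 0.0046. With a pseudocount of 1 Cox7a1 was at 0.022. With the glial covariate Atp5g1 was at 0.10, Cox7a2 at -0.057, Cox7b at -0.090, Cox8a at 0.093, Ndufa4 at -0.0073, Ndufs1 at 0.11, Sdhd at 0.10 and Uqcrc1 at 0.19. In males alone Cox7a1 was at 0.41 and Sdhc at 0.049. In females alone Cox4i1 was at 0.019 and Cox4i2 at -0.78. With 1 donor left out the ranges that crossed 0 were -0.035 to 0.030 for Cox4i1, -0.11 to 0.020 for Cox4nb, -0.15 to 0.11 for Cox7a1 and -0.085 to 0.0022 for Sdhc. Among the members tested, Cox4i2, Cox7a1 and Cox6b2 had the lowest maximum of reads per library.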
